A study of Mus musculus with 2 samples.

Results

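The clustered numbered zinc finger genes are the mouse genes named Zfp with a number that sit next to each other in the genome. The members were the genes on chromosomes 1 to 19 with such a symbol in the RefSeq annotation of GRCm38 whose start lay within 200 kb of the start of another such gene, with Zfp42 left out. This rule used symbols and positions alone and found 229 genes, 227 of them protein-coding, among 364 numbered zinc finger genes and 47042 genes of all kinds. They formed 54 clusters on 14 chromosomes. The smallest kind, a pair of genes, made up 25 clusters, and the largest cluster held 19 genes. Chromosome 7 alone had 78 members in 16 clusters. Of the 229 genes, 189 overlapped 1 or more of the 43941 windows of 50 kb analysed here. Genes with identical windows were counted as 1 locus, which gave 166 loci over 167 windows. 22 loci held more than 1 member, and up to 4 members overlapped a single window, so members of a cluster are not separate measurements.

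Many genes of this kind encode KRAB zinc finger proteins. Such a protein binds DNA through a row of zinc fingers, and its KRAB domain recruits the corepressor TRIM28, which brings in the histone methyltransferase SETDB1 and heterochromatin proteins. In ES cells this machinery is known for silencing retroelements and for keeping methylation at imprinted regions. The genes multiplied by tandem duplication and turn over fast, so their clusters differ between mouse strains and species.

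Contacts were measured by Promoter Capture Hi-C, which ligates fragments of crosslinked chromatin that lie close together and pulls out the products with a promoter by RNA baits. The cells were F121-6, a female hybrid ES cell line in which each chromosome pair has a copy of 129 origin and a copy of Mus castaneus origin (Cas), in ES medium with serum and LIF on mitomycin-C-inactivated embryonic fibroblasts. Both samples, replicates 1 and 2, belong to this group and carry no treatment or engineered allele in the labels. The table gives 1 pooled interaction count and 1 interaction distance per allele and window, so alleles were compared within the pooled data, with no spread between replicates. Both samples are the same cell line, nothing in the labels says that the cultures were separate, and what feeder cells added to the counts was not tested. DNA contacts cannot be checked against the markers of a cell type.

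Interaction counts summed to 50842396 on 129 and 37470557 on Cas, so 129 held 57.6% of all autosomal interactions. Ratios are therefore given as log2((129 + 1)/(Cas + 1)) minus the median of all windows, 0.45. On this centred scale 0 is the ratio of the median window, a positive value means relatively more contacts on 129, and a negative value relatively more on Cas. Intervals of a 129 share are exact Clopper-Pearson 95% intervals and cover counting error only, since amplified reads and both ends of a contact are not independent molecules.

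As a group, the zinc finger loci leaned little to either allele. The few loci past 1.5-fold towards Cas lay mostly in clusters on chromosomes 4, 8 and 13. The median centred ratio of the 166 loci was -0.05 (quartiles -0.20 and 0.10), beside -0.02 over all 29348 gene loci tested and -0.03 over the other protein-coding loci. 64 loci, or 38.6%, lay above 0, against 45.9% of all gene loci. Past 1.5-fold in either direction, a log2 ratio of 0.58, lay 14 zinc finger loci (8.43%), beside a background of 8.67% of all gene loci. 6 of these 14 were higher on 129 and 8 higher on Cas, where the background shares were 5.38% and 3.29%. The split therefore differed from that of all genes, in which the larger group was higher on 129, but it rests on 14 loci that share windows and clusters, and it was not tested.

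Against the spread of all gene loci around the autosomal share, few single loci stood out. The beta-binomial test with Benjamini-Hochberg adjustment over all gene loci, whose overdispersion corresponds to loci scattering around the autosomal share by 5.76 percentage points (standard deviation), called 4 of 166 zinc finger loci (2.41%), all higher on Cas. The background of this test was 1.36% of gene loci. 12 loci were under an unadjusted beta-binomial p of 0.05. No share over all gene loci is given for this count, so it is not read as a result about these loci. The exact binomial test, which counts sampling error alone, called 107 loci (64.5%), 50 higher on 129 and 57 higher on Cas. Its background was 61.6% of gene loci, 8516 higher on 129 and 9552 higher on Cas. The 4 calls were Zfp868, the locus shared by Zfp457 and Zfp595, and the neighbours Zfp981 and Zfp993, which share a window. With the overdispersion estimated separately for each decile of the count, none of the 4 kept its call, with beta-binomial adjusted p values of 0.0657 for Zfp868, 0.184 for Zfp457 and Zfp595, 0.406 for Zfp993 and 0.436 for Zfp981. Against equal shares of both alleles in place of the autosomal share, none kept its call either, at 0.829 each.

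**Figure D1:**
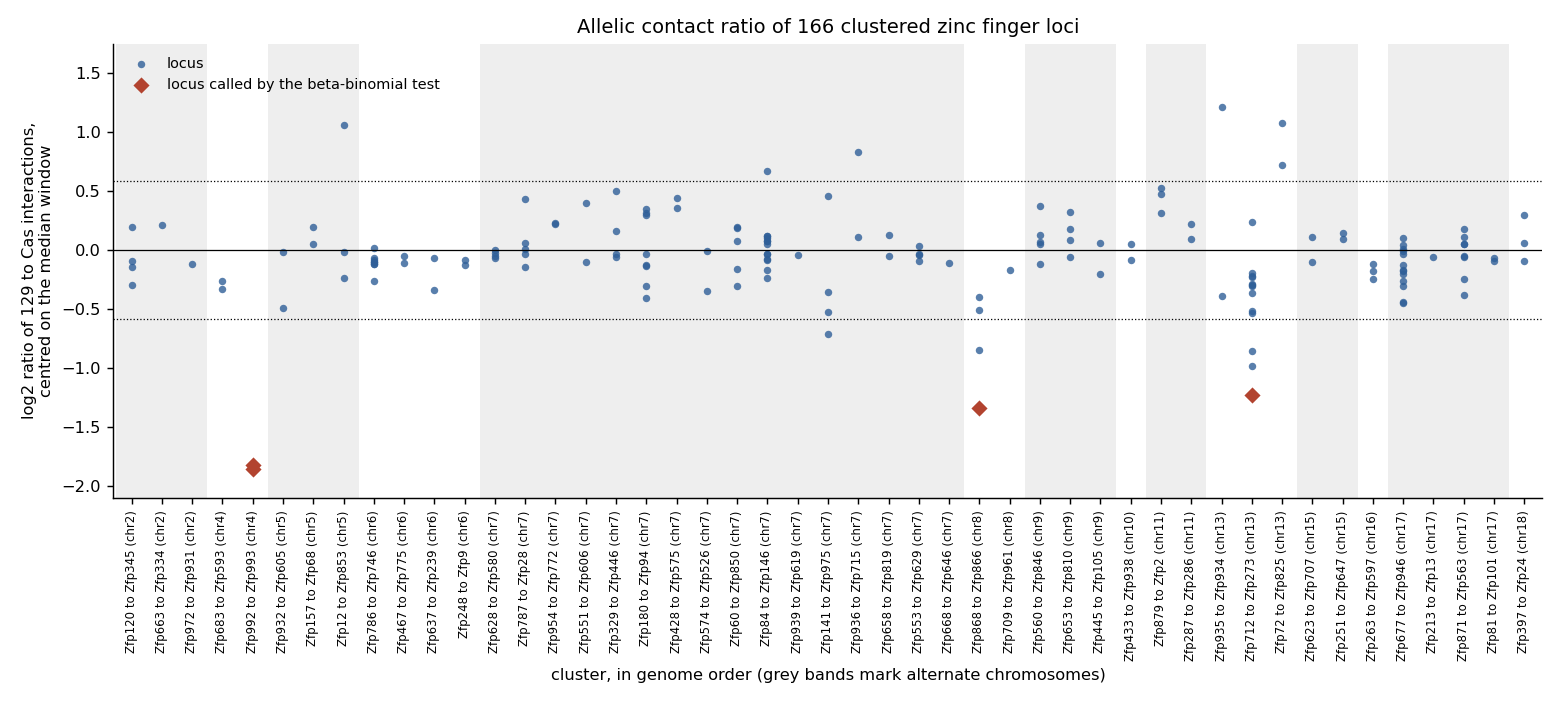
Each point is 1 of 166 zinc finger loci, placed by cluster in genome order on the x axis and by its centred log2 ratio of 129 to Cas interactions on the y axis. Diamonds are the 4 loci called by the beta-binomial test, dotted lines mark 1.5-fold, and grey bands mark alternate chromosomes. Most loci lie close to 0, and the called loci lie between -1.86 and -1.23.

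On chromosome 8, all 4 loci of the cluster from Zfp868 to Zfp866 had relatively more contacts on Cas. The Zfp868 window, chr8:69600001-69650000, had 1072 interactions on 129 and 1988 on Cas. Of these, 35.0% (33.3 to 36.8%) were on 129, with a centred ratio of -1.34 (beta-binomial adjusted p = 0.0123). The next window, with Zfp964, had 686 and 905 interactions, a 129 share of 43.1% and a centred ratio of -0.85 (beta-binomial adjusted p = 0.473). Zfp869 and Zfp963 share the window after it, with 2303 and 2389 interactions, 49.1% on 129 and a centred ratio of -0.51. The last window, with Zfp866, had 1955 and 1879 interactions, 51.0% on 129 and a centred ratio of -0.40. The 129 share was thus higher in each next window in genome order, and the cluster as a whole held 6016 interactions on 129 and 7161 on Cas, with 45.7% (44.8 to 46.5%) on 129. In the Zfp868 and Zfp964 windows and in the window of Zfp869 and Zfp963 the raw Cas count exceeded the 129 count, against the direction of the autosomal total. Interactions of the Zfp868 window also had unequal distances, 353.5 kb on 129 and 169 kb on Cas. The Zfp868 promoter is shown because this locus had the smallest adjusted p of the group. It is the RefSeq window of 300 bases, 250 before and 50 after the start, on the minus strand of GRCm38 at chr8:69625499-69625798, with the motif CCAAT in capitals, which stands at 2 places upstream of the start.
Zfp868: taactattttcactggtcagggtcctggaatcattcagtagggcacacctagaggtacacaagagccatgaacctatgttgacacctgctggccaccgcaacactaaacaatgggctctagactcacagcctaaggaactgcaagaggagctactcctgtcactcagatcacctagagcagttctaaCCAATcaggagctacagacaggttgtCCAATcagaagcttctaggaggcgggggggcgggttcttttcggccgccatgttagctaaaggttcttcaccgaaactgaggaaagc

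The largest cluster, 19 genes from Zfp712 to Zfp273 on chromosome 13, also leaned to Cas. A window of Zfp455 in it also holds Rsl1, a zinc finger gene known as a repressor of sex-limited liver genes. Its 12 windows had 13225 interactions on 129 and 12721 on Cas, with 51.0% (50.4 to 51.6%) on 129, and 12 of its 13 loci lay below 0. The window shared by Zfp457 and Zfp595, chr13:67300001-67350000, had 691 interactions on 129 and 1186 on Cas, 36.8% (34.6 to 39.0%), and a centred ratio of -1.23 (beta-binomial adjusted p = 0.037). Zfp953 overlaps this window and the next one and had 1004 and 1448 interactions, 40.9% on 129 and a centred ratio of -0.98 (beta-binomial adjusted p = 0.222). The next window on its own, which Zfp953 shares with Zfp456 and Zfp429, had 313 and 262 interactions and a centred ratio of -0.20, so the low share of Zfp953 came from the window of Zfp457 and Zfp595. Zfp738 had only 121 and 160 interactions, 43.1% on 129 and a centred ratio of -0.85 (beta-binomial adjusted p = 0.69). Zfp455, with 928 and 983 interactions, lay at -0.54 and Zfp759, with 1237 and 1292, at -0.52. The other loci lay closer to 0, and Zfp458, at 133 and 82 interactions, was the 1 locus above it, at 0.24.

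A pair of genes a few Mb further along chromosome 13 leaned the other way. Zfp72 had 3969 interactions on 129 and 1762 on Cas, 69.3% (68.0 to 70.4%), and a centred ratio of 0.72 (beta-binomial adjusted p = 0.816). Its window also holds the protein-coding genes Sdha, Ccdc127 and Lrrc14b. Zfp825 had 126 and 43 interactions, 74.6% (67.3 to 80.9%), and a centred ratio of 1.08 (beta-binomial adjusted p = 0.388). Together they held 69.4% of their interactions on 129, the highest share of the 47 clusters with windows. The promoters of Zfp457, Zfp595 and Zfp72 are shown because these genes lie in clusters of opposite lean and yet share letters. All are on the minus strand of GRCm38, at chr13:67306363-67306662 for Zfp457, chr13:67332511-67332810 for Zfp595 and chr13:74390780-74391079 for Zfp72. Capitals mark GAAATGTAG and TGACGT, searched on both strands, and neighbouring capitals mark TGACGT on both strands of TGACGTCA.
Zfp457: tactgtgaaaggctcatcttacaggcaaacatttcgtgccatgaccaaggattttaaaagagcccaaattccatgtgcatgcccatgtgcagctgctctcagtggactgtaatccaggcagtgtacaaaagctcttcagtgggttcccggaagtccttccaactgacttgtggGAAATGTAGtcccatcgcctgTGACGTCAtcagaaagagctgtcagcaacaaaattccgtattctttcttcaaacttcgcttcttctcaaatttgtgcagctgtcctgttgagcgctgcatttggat
Zfp595: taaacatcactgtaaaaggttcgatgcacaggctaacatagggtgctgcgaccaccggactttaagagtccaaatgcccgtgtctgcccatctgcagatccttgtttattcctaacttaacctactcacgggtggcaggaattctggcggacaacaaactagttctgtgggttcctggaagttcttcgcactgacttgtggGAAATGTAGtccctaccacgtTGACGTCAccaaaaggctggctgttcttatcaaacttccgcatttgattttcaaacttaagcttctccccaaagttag
Zfp72: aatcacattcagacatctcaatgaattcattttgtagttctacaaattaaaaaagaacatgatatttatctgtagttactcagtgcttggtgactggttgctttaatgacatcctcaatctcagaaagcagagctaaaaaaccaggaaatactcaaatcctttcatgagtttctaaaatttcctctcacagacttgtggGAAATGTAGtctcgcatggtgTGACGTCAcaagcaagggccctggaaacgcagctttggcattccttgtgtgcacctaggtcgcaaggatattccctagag

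These letters were picked after the promoters had been read and carry no test. GAAATGTAG was in 28 of the 197 member promoters with an entry in the RefSeq table (14.2%), in 2 of 104 promoters of numbered zinc finger genes outside clusters (1.92%) and in 182 of 16457 promoters of all protein-coding genes (1.11%). The 28 members fell in 9 clusters, with 15 of 70 promoters on chromosome 7, 9 of 20 on chromosome 13 and none of 29 on chromosome 17. TGACGT alone was in 9.64% of member promoters and in 8.82% of those of all protein-coding genes. Both motifs together were in 6 members (3.05%) and in 20 protein-coding genes (0.122%), these members included. The members carrying GAAATGTAG covered 27 loci, with a median centred ratio of -0.08 and 4 loci past 1.5-fold, and the other members with a promoter entry covered 125 loci, with a median of -0.05 and 9 past 1.5-fold. Of all gene loci, 8.67% were past 1.5-fold. The 4 loci include those of Zfp457, Zfp595 and Zfp72, from whose promoters the letters were picked, so the 2 counts cannot be read against each other.

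Further motifs were counted in the same 197 promoters, again on both strands. CCAAT was in 54.3% of member promoters, against 41.3% outside clusters and 39.1% of all protein-coding genes. TATAAA was in 4.06%, against 13.5% of all protein-coding genes. GGGCGG was in 39.1% against 47.3%, AAGATGG in 7.61% against 6.40% and AAGCTT, the site of the enzyme HindIII that cut the chromatin, in 8.63% against 6.45%. The median GC content was 53.3% in members, 58.7% outside clusters and 56.7% in all protein-coding genes. Duplicated genes share promoter letters by descent, so members are not independent in these counts.

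The Cas lean on chromosome 4 rests on few contacts. Zfp981 and Zfp993 share the window chr4:146500001-146550000, with 16 interactions on 129 and 43 on Cas, 27.1% on 129 (16.4 to 40.3%). Zfp993, whose locus adds a window with 1 interaction on Cas, was named for its call, after its values had been seen. The centred ratios were -1.82 for Zfp981 and -1.86 for Zfp993 (beta-binomial adjusted p = 0.045 and 0.037), and with a minimum of 100 interactions neither locus is tested.

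The 6 loci past 1.5-fold towards 129 lay on chromosomes 5, 7 and 13, and none of them was called by the beta-binomial test. The exact binomial test called 50 of 166 loci higher on 129, beside 8516 of 29348 gene loci, so this count is not read as a result about the members. With only the window of the transcription start, the beta-binomial test called 2 of 122 loci, 1 of them higher on 129, beside 216 of 14814 gene loci in either direction. Zfp12, on chromosome 5, had 962 interactions on 129 and 336 on Cas, 74.1% (71.6 to 76.5%), and a centred ratio of 1.06 (beta-binomial adjusted p = 0.168). The window it shares with Zfp316 also holds Spdye4a and Spdye4b, and the windows on either side lay at -0.21 and -0.24. Zfp936, with 184 and 75 interactions, lay at 0.83 (beta-binomial adjusted p = 0.791). The window of Zfp420, which Zfp940 and Zfp27 overlap too, had 1046 and 478 interactions and a centred ratio of 0.68 (beta-binomial adjusted p = 0.978). Zfp2, with 8591 and 4345 interactions, lay at 0.53, Zfp128, with 1864 and 961, at 0.50, and Zfp879, with 4498 and 2366, at 0.47. The cluster of Zfp879, Zfp454 and Zfp2 on chromosome 11 leaned to 129 at each of its 3 loci, between 0.31 and 0.53, and held 66.1% of its interactions on 129 (65.4 to 66.8%). Zfp934, with 53 and 16 interactions, lay at 1.22 and had 2 windows of opposite direction, 0 and 7 interactions in the first and 53 and 9 in the second.

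**Figure D2:**
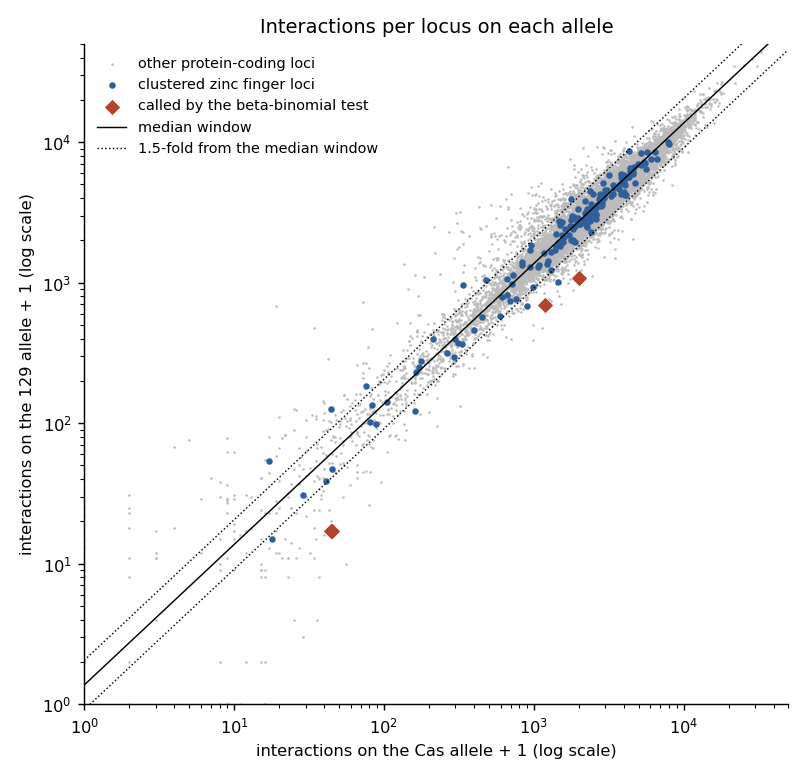
Interactions on Cas (x axis) and on 129 (y axis) for each locus, plus 1, both on log scales, with the zinc finger loci in blue, called loci as red diamonds and other protein-coding loci in grey. The solid line is the ratio of the median window and the dotted lines lie 1.5-fold from it; most zinc finger loci past the dotted lines have low counts.

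The loci past 1.5-fold were mostly loci with few contacts. The zinc finger loci had a median summed count of 4832.5 (quartiles 2373.75 and 7926.5), below the 6174.5 of other protein-coding loci, and 7 of them had under 100 interactions. In the lowest quartile band of their counts, 11 of 42 zinc finger loci (26.2%) were past 1.5-fold, beside 18.0% of other protein-coding loci in the same band. In the next bands it was 2 of 41 (4.88%, beside 7.98%), 1 of 41 (2.44%, beside 5.28%) and 0 of 42 (beside 2.73%). Zinc finger loci with many contacts thus lay close to the median window: the standard deviation of the centred ratio was 0.64 in the lowest band and 0.20 in the highest. The lowest band runs from 10 to 2373.75 interactions, and counts were not matched within it. Among loci of 100 or more interactions, 10 of 159 zinc finger loci were past 1.5-fold, beside 7.90% of all gene loci. Numbered zinc finger genes outside clusters had a median of -0.05 with 9.17% past 1.5-fold. Other families of duplicated genes gave 12.4% for olfactory receptors and 22.3% for vomeronasal receptors, with medians of 0.06 and 0.09.

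Single windows varied more than whole loci. Of 165 member windows with 10 or more interactions, 18 (10.9%) were past 1.5-fold, 10 higher on 129 and 8 higher on Cas. The background was 12.2% of all windows, 3378 higher on 129 and 1981 higher on Cas. 9 of the 18 had 1000 or more interactions and 5 had under 100. The same beta-binomial test run over windows, added after the data had been seen, called 2 member windows, beside a background of 0.944%. They were the Zfp868 window (beta-binomial adjusted p = 0.0495) and a window of Zfp667.

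At Zfp667 the windows of 1 gene differed. The window chr7:6250001-6300000, which holds the start of Zfp667 and the gene Epp13, had 2335 interactions on 129 and 328 on Cas, 87.7% (86.4 to 88.9%), and a centred ratio of 2.38 (beta-binomial adjusted p = 9.13e-06 over windows). The window before it lay at 0.25 and the window after it at -0.14. That next window, which Zfp667 shares with Zfp583, had 3506 and 2824 interactions. Distances in the unequal window were 94 kb on 129 and 216 kb on Cas. Zfp667 was named after its values had been seen. Its promoter is shown for the start that lies in this window, on the plus strand of GRCm38 at chr7:6286330-6286629. Capitals mark its 25 CG pairs, against a median of 11 in the members and 14 in all protein-coding genes. Some members had more, among them Zfp777 with 51, whose windows lay at 0.01 and -0.12. CG pairs were not set against the ratios over all members.
Zfp667: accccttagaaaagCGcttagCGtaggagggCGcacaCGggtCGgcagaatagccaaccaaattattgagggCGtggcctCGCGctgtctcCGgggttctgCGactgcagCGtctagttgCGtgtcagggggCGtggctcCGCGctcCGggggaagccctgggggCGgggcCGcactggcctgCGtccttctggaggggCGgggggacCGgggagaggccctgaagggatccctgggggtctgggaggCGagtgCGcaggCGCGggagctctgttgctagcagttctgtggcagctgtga

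In the other large clusters the loci lay on both sides of 0. On chromosome 6, the 8 loci from Zfp786 to Zfp746 ran from -0.26 to 0.02, with 56.1% of interactions on 129. On chromosome 7, the 8 loci from Zfp180 to Zfp94 ran from -0.40 to 0.35 (56.0%) and the 13 loci from Zfp84 to Zfp146 from -0.24 to 0.68 (57.7%), the top value being that of Zfp420. On chromosome 17, the 13 loci from Zfp677 to Zfp946 ran from -0.44 to 0.10 (55.4%) and the 8 loci from Zfp871 to Zfp563 from -0.38 to 0.18 (57.1%). Among clusters of 3 or more loci, the lowest 129 shares were 45.7% and 51.0%, in the chromosome 8 and chromosome 13 clusters described above, and 55.0% in the cluster from Zfp263 to Zfp597 on chromosome 16. The highest were 66.1% on chromosome 11, 61.8% from Zfp141 to Zfp975 on chromosome 7 and 60.7% from Zfp653 to Zfp810 on chromosome 9. The cluster from Zfp141 to Zfp975 had only 478 and 295 interactions, and without its largest window its share was 54.4%, below the autosomal share.

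**Figure D3:**
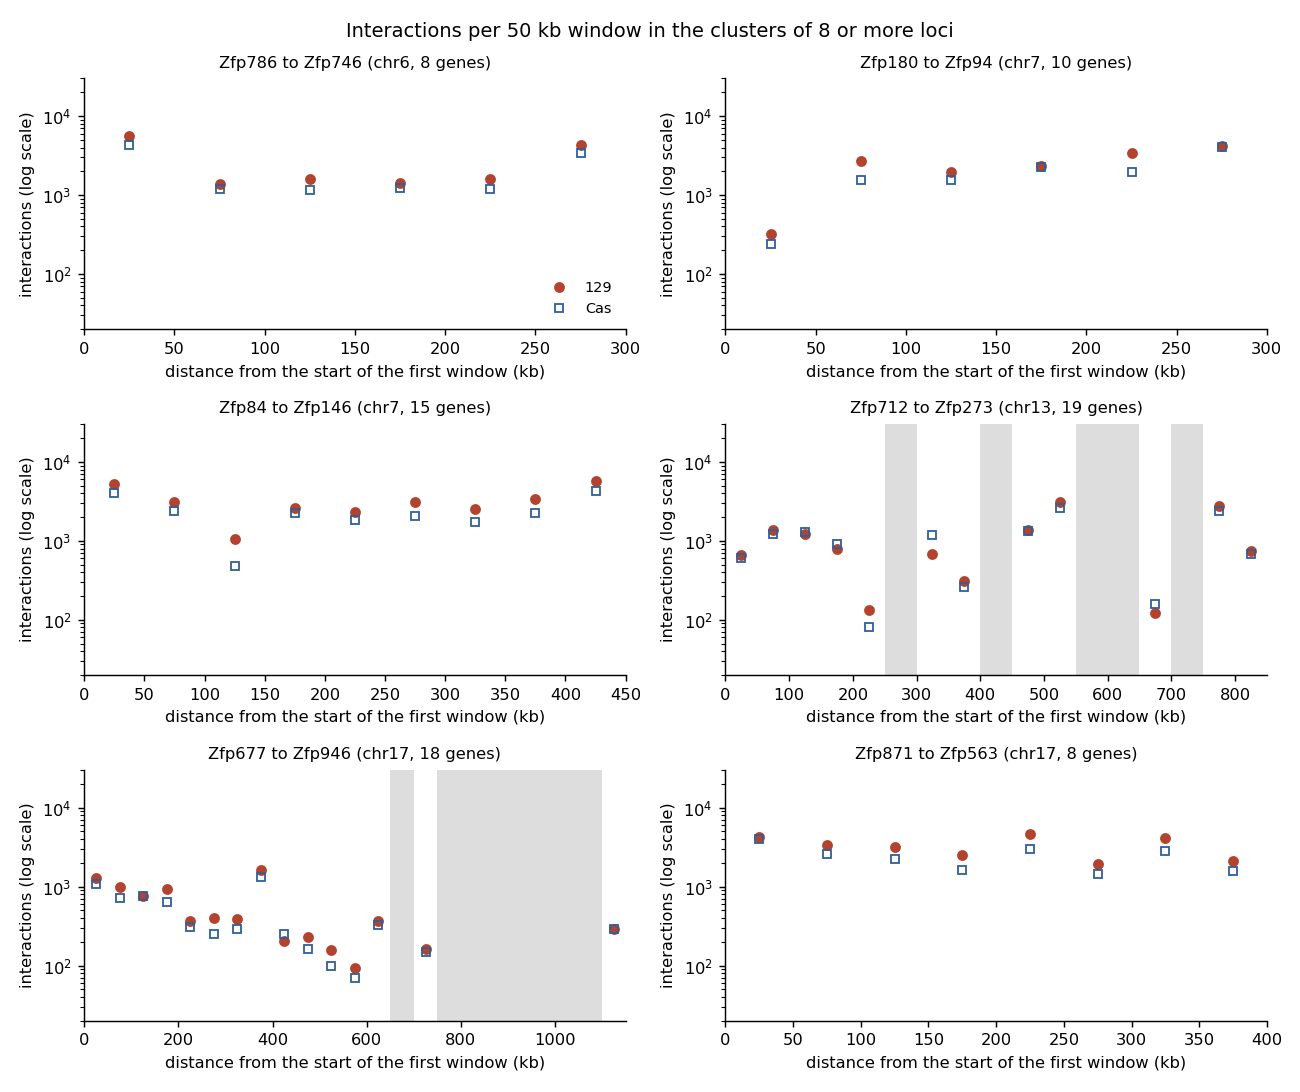
Interactions per 50 kb window (y axis, log scale) along the 6 clusters of 8 or more loci, by distance in kb from the first window (x axis), with filled circles for 129 and open squares for Cas. Grey stripes are windows that the table analysed here does not hold. In most windows 129 lies just above Cas, and in the cluster from Zfp712 to Zfp273 several windows show the reverse.

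The standard deviation of the centred ratio was 0.28 within the 41 clusters of 2 or more loci, against 0.39 over all 166 loci. This comparison was not tested, and loci of a cluster often share windows. Neighbours without a shared window were set side by side as a description: over 62 such pairs, Pearson's r was 0.38 and Spearman's rho 0.38. These pairs share libraries and chromosomal neighbourhood. Of the 47 clusters with windows, 21 were above and 26 below the autosomal 129 share. With the window of the largest count left out of each cluster, 23 of the 40 clusters that could still be counted were above it. Clusters with only 1 window dropped out, as did the cluster from Zfp992 to Zfp993, whose other window held 1 interaction. Most of the clusters that dropped out had been below the autosomal share. The counts before and after therefore cover different clusters and cannot show whether the majority changed sides.

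Members with a described function ran from -1.23 to 1.08, with a median of -0.03. 21 genes of a list of 24 were members, 16 of them had a window, and 2 of these were past 1.5-fold, Zfp457 and Zfp825, whose values are given above. With 8.67% of all gene loci past 1.5-fold, the count of 2 in 16 is not read as a result about these genes. Zfp809, which silences murine leukaemia viruses in ES cells, had 2944 interactions on 129 and 2237 on Cas in the windows it shares with Zfp599, a centred ratio of -0.06. Zfp568, a repressor of a placental Igf2 transcript, had 5483 and 3863 interactions and lay at 0.05. Zfp445, which helps to keep imprints, had 4200 and 2935 and lay at 0.06. Zfp819, a repressor of retroelements, had 4603 and 3079 and lay at 0.13. Zfp932, another retroelement repressor, had 141 and 104 and lay at -0.02. Zfp708, which lies in the large chromosome 13 cluster, had 1357 and 1214 and lay at -0.29. Zfp560 was the most 129-leaning of those not past 1.5-fold, with 5117 and 2891 interactions and a centred ratio of 0.37, and Zfp637 the most Cas-leaning, with 1968 and 1822 and a centred ratio of -0.34. Zfp110, Zfp266, Zfp768, Zfp764, Zfp961 and Zfp931 lay between -0.17 and 0.16. None of these but Zfp457 was called by the beta-binomial test.

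The partners of the zinc finger proteins in silencing ran from -0.54 to 2.08. 25 of 27 listed cofactor genes had a match, with a median centred ratio of 0.00 and 13 above 0. Trim28, the corepressor, had 4048 interactions on 129 and 3276 on Cas and lay at -0.15. Setdb1, the methyltransferase, had 2245 and 1950 and lay at -0.25. Cbx3, which encodes a heterochromatin protein, was the 1 gene past 1.5-fold and the 1 called by the beta-binomial test, beside 8.67% and 1.36% of all gene loci, with 2139 interactions on 129 and 369 on Cas, 85.3% (83.8 to 86.7%), and a centred ratio of 2.08 (beta-binomial adjusted p = 1.09e-05). The exact binomial test called 15 of the 25, beside 61.6% of all gene loci, so this count is not read as a result about the cofactors. The lowest ratio was that of Hdac1, a histone deacetylase, with 3916 and 4150 interactions and a centred ratio of -0.54.

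Per window, the members had a higher median count than other protein-coding genes, while per locus it was lower, 4832.5 against 6174.5. On 129 the median over member windows was 1955 interactions, with quartiles of 793 and 3131.5. On Cas it was 1523, with quartiles of 625 and 2265. Windows with another protein-coding gene and no member had medians of 1023.5 and 752. These other windows are all that such a gene overlaps, with or without its start, and gene length was not matched. At the low end, 11 member windows (6.59%) had under 100 interactions, against 1.32% of those other windows. The members were the only protein-coding genes in 93 windows, which had medians of 1453 and 1086, while the 74 windows with a further protein-coding gene had 2616 and 1827.5. The baits target promoters, and the part of the capture in these levels was not tested. The loci with the most interactions were Zfp248 with 10051 and 7801, Zfp174 with 9684 and 7986 and Zfp771 with 8538 and 6390. Those with the fewest were Zfp975 with 14 and 17, Zfp976 with 30 and 28 and Zfp981 with 16 and 43.

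Contacts of the member windows were short on both alleles. A distance was compared in the 163 windows in which both alleles had 10 interactions or more. The median was 102 kb on 129 (quartiles 49 and 197) and 104.5 kb on Cas (quartiles 51.5 and 193). Windows with other protein-coding genes, again not matched for gene length, had 183.5 and 188.5 kb and all windows 348 and 347.5 kb. 85 member windows had the longer distance on 129, 75 on Cas and 3 had equal distances. 20 windows (12.3%) differed 2-fold or more, 13 with the longer distance on 129 and 7 on Cas. The background was 17.1% of all windows, 3646 longer on 129 and 3804 longer on Cas. The difference in split was not tested. With 1 distance per allele and window, no error can be given.

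Windows with the most unequal distances included some of high count, the Zfp667 window given above among them. A window of Zfp157 with 717 and 390 interactions had 101 kb on 129 and 20 kb on Cas, and the window of Zfp553 and Zfp771, with 2725 and 1944 interactions, had 37 kb on 129 and 109 kb on Cas. Zfp931 had 313.5 kb on 129 and 28 kb on Cas, from 101 and 80 interactions. The window of Zfp995 and Zfp942 had 2284 and 838 kb, and that of Zfp935 had 3854 and 1442.5 kb. Longer on Cas were a window of Zfp932, with 3294 kb on 129 and 11834 kb on Cas from 47 and 37 interactions, and a window of Zfp141, with 4206 and 10405 kb. Among the 16 member windows past 1.5-fold in count with distances on both alleles, the allele with more contacts had the shorter distance in 9 and the longer in 7. Among all such windows it was 2908 against 2227 of 5183.

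**Figure D4:**
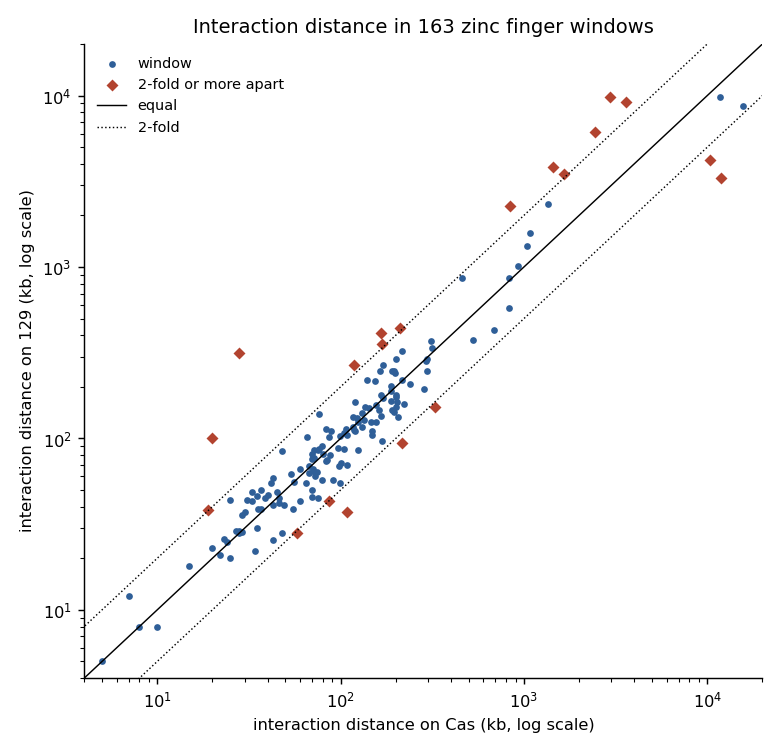
Interaction distance in kb on Cas (x axis) and on 129 (y axis), both log scales, for the 163 windows of clustered zinc finger genes in which both alleles reached 10 interactions. The solid line marks equal distances, dotted lines 2-fold, and red diamonds the 20 windows at or past 2-fold, which lie on both sides.

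Clustered zinc finger genes were missing from the analysed windows more often than most coding genes. 40 of 229 members (17.5%) had no window in the table analysed here and 8 had part of theirs. The share was 10.4% (14 of 135) for numbered zinc finger genes outside clusters and 10.0% for other protein-coding genes, and it was higher for olfactory (24.5%) and vomeronasal receptor genes (37.5%). Why these windows are not among those analysed was not tested. Chromosome 4 had the most such genes, 14 of 18 members. Chromosome 2 had 6 of 13, chromosome 17 had 6 of 32, chromosome 10 had 2 of 4 and chromosome 7 had 5 of 78. 7 clusters, with 21 genes, had no window at all, and 38 clusters had all their members in windows. On chromosome 4 the genes without a window were Zfp990, Zfp980, Zfp987, Zfp600, Zfp992, Zfp978, Zfp991, Zfp988, Zfp982, Zfp985, Zfp979, Zfp534, Zfp984 and Zfp933. On chromosome 2 they were Zfp968, Zfp965, Zfp967, Zfp973, Zfp972 and Zfp971.

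**Figure D5:**
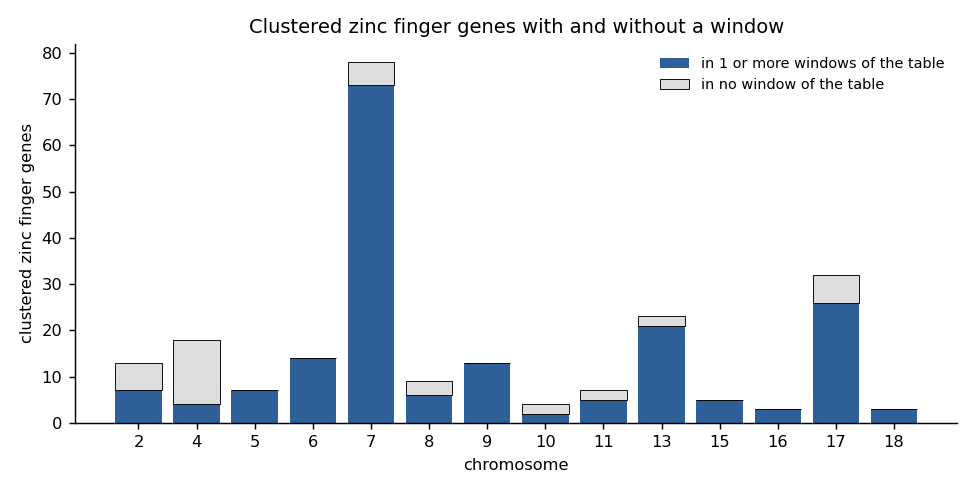
Number of clustered zinc finger genes (y axis) on each of the 14 chromosomes that hold a cluster (x axis), split into genes in 1 or more windows (blue) and genes in none (grey). Chromosome 4 has 14 of 18 genes in no window and chromosome 7 has 5 of 78.

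Members with a near copy of their promoter at another member often had no window. Among the 197 members with a promoter entry, 25 had a promoter at least 80% identical, by edit distance, to that of another member. Of these 25, 14 (56%) had no window, against 21 of the other 172 (12.2%). Most of the 14 lay on chromosomes 2 and 4, where whole clusters had no window. The cluster from Zfp978 to Zfp933 had none even for Zfp982, Zfp984 and Zfp933, whose best matches were 48.3%, 78.7% and 48.7%. Position and near copy can therefore not be told apart, and copies within a cluster are not independent. The most alike pairs were Zfp968 and Zfp973 (99.7%), Zfp965 and Zfp971 (97%), Zfp600 and Zfp979 (94.7%) and Zfp943 and Zfp758 (94.7%). Members of these pairs had no window, with the exception of Zfp943. Zfp937 and Zfp442 (90%) both had one. How far such copies bear on which windows hold counts was not tested, and values at members with a near copy are uncertain. Zfp600 and Zfp979 are shown as an example of a near-identical pair in separate clusters. Zfp600 is on the plus strand of GRCm38 at chr4:146156577-146156876 and Zfp979 on the minus strand at chr4:147642459-147642758. Capitals mark the bases at which each differs from the other in an alignment with 16 edits.
Zfp600: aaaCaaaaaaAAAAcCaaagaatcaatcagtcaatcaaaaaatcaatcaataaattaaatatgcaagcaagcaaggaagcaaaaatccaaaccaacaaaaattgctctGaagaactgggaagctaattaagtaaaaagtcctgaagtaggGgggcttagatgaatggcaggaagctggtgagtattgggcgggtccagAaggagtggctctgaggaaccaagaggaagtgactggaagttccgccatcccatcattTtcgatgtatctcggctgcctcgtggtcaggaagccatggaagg
Zfp979: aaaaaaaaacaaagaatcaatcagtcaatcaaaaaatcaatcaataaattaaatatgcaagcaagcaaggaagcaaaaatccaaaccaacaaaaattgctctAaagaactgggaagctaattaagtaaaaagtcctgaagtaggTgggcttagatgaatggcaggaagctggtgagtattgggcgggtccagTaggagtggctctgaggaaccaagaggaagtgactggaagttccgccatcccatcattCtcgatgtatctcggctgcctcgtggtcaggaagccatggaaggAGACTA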

How the data were processed

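Promoter Capture Hi-C was done on 2 samples of 1 group. Chromatin was cut with HindIII and promoters were captured with RNA baits, per the labels' protocols. The submitters' processing notes name Bowtie2 and mm10. Read assignment to alleles, duplicate removal and merging of samples by the authors are steps not given in the sources used here. Whole-number interaction counts, not normalised, and distances per allele fill the deposited table for windows of 50 kb. The deposited distances were read as bp; their summary, mean or median, is unstated. The same column labels belong to both samples, so each column was taken as pooled.

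Genes were placed by RefSeq positions (GRCm38.p6), without strand. Promoter sequences come from the RefSeq table of the same build, where 197 of 229 members matched. No protein sequences were used here. A two-sided beta-binomial test was run on every locus with at least 10 interactions, against the autosomal 129 share, with 1 overdispersion (0.0136) over all gene loci and Benjamini-Hochberg adjustment at 0.05. The exact binomial test was an alternative. Ratios took a pseudocount of 1. Calls by size took 1.5-fold for counts and 2-fold for distances. Code was tested on simulated data.

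Named genes were the 8 loci per direction with the largest ratio at 100 or more interactions, the 4 windows per direction whose distances differed most, given 20 interactions on each allele, clusters of 6 or more loci, the 3 most extreme clusters per direction of 3 or more loci, members with a described function, and the 3 loci with the most and the fewest interactions. The members and lists were chosen with earlier results of these data known. Computation ran in Python 3.11.15, with scipy 1.17.1 for the tests, pandas 2.3.3, matplotlib 3.10.9 for figures and numpy 2.4.6.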

Additional observations from a re-analysis of the deposited data

How the results depend on the processing

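The count of loci called by the beta-binomial test depended most on the processing. In place of 4 calls of 166 it was 107 with the exact binomial test, beside 18068 of 29348 gene loci. With an overdispersion for each decile of the count it was 0 (9 at an unadjusted p under 0.05), beside 309 of 29348. Against equal shares of both alleles it was 0 (6 unadjusted), beside 146 of 29348. No share over all gene loci is given for the unadjusted counts, so they are not read as results. Among loci of 100 or more interactions it was 2 of 159, beside 329 of 28951. With only the window of the transcription start it was 2 of 122, of which 1 was among the 4, beside 216 of 14814. When windows were tested, an alternative added after the data had been seen, it was 2 of 165, beside 413 of 43762 windows. The exact binomial test, by counting error alone, and the null share of each chromosome kept all 4 calls. Member windows past 1.5-fold numbered 18 of 165 (10.9%, beside 12.2% of all windows). At 2-fold there were 9 (5.45%, beside 3.32%), so the member share was below the background at 1.5-fold and above it at 2-fold. Windows past 2-fold in distance numbered 20 of 163 (12.3%, beside 17.1% of all windows), and 43 of 163 at 1.5-fold, beside 31.4%. Loci past 1.5-fold numbered 14 of 166 (8.43%, beside 8.67% of all gene loci), and 10 to 14 of changing totals over the alternatives run. With only the window of the transcription start it was 14 of 122, beside 9.21% of all gene loci, so the member share was then above the background. Among loci of 100 or more interactions it was 10 of 159, beside 7.90%. The median centred ratio of the zinc finger loci, -0.05, became -0.06 to -0.04 over the alternatives. No paired analysis was possible because the table holds 1 pooled column per allele and only 1 group, and no replicate could be left out for the same reason. Depth limits the low end: 7 loci had under 100 interactions.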
